A study of Homo sapiens with 33 samples.

Results

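The 10 genes described here carry out or serve the synthesis of steroid hormones: STAR, CYP11A1, CYP17A1, CYP19A1, HSD3B2, HSD17B1, SRD5A1, POR, FDX1 and FDXR. They were chosen by name, and each was found as 1 of the 58735 genes in the deposited count table. They were followed through a gonadal differentiation of H9 human embryonic stem cells, an established line. The line carried H9-DDdCas9VP192-FOXL2, a catalytically dead Cas9 fused to a transcriptional activator and directed at the gene for the ovarian transcription factor FOXL2. All libraries came from clone 24 of that line, so cells of every group, controls included, carried the construct for the activator. Cells were collected at day 4, and on days 6, 8, 10, 12 and 14 either without induction (CTRL) or after doxycycline (DOX) and trimethoprim (TMP) had been added at day 4 (IND). This gave 11 groups of 3 libraries, 33 in all. The study describes the 3 libraries of a group as technical replicates of 1 biological replicate, so every p-value below measures the spread between such libraries only. No group received DOX and TMP without the FOXL2 guides, and the action of the compounds cannot be told apart from that of FOXL2.

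Steroid hormones are made from cholesterol. STAR moves cholesterol into the mitochondrion, where CYP11A1 cuts off its side chain to give pregnenolone, with electrons passed from NADPH by FDXR and then FDX1. In the endoplasmic reticulum HSD3B2 converts pregnenolone to progesterone, CYP17A1 opens the way to androgens and CYP19A1, aromatase, turns androgens into estrogens. The last 2 enzymes receive their electrons from POR. HSD17B1 makes estradiol from estrone, and SRD5A1 reduces testosterone to dihydrotestosterone. In the ovary the steps are shared between cell types: theca cells supply androgens, and granulosa cells convert them to estrogens under the control of follicle-stimulating hormone.

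Sequence before the gene start differed between members. RefSeq windows of 300 bases on GRCh38.p14, of which 250 precede the start, were held for 7 of the 10 members, with 14 windows in all because some genes have several starts. The windows of HSD3B2, CYP17A1 and CYP11A1 held 1, 3 and 5 CpG dinucleotides, and the 7 windows of CYP19A1 between 0 and 6. The windows of FDX1 and SRD5A1 held 24 and 33. FDXR had 1 window with 24 and 1 with 5. The median over all 35116 windows was 14. The 3 stretches below, which precede the annotated exons, show that contrast for a low-count member that was called under induction, a member with almost no reads and a well detected member. Each CpG is in capitals, and the sequences run 5′ to 3′ along the gene's strand.
HSD3B2, chr1:119414681-119414930, plus strand: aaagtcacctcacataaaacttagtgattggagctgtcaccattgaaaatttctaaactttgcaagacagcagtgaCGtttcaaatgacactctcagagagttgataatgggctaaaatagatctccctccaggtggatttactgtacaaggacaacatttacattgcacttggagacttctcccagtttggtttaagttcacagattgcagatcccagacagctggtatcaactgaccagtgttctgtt
CYP17A1, chr10:102837534-102837663, minus strand: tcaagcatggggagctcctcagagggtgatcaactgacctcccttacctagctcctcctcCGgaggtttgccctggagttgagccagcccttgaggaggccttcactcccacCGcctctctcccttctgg
SRD5A1, chr5:6633190-6633342, plus strand: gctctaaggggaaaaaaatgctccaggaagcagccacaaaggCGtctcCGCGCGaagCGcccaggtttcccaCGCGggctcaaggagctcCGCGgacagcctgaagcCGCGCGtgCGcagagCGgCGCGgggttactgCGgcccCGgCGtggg
The HSD3B2 stretch held 1 CpG in 250 bases, that of CYP17A1 2 in 130, and that of SRD5A1 19 in 153.

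The letters AAGGNCA, searched on both strands, resemble the sites bound by NR5A1, the nuclear receptor that drives steroidogenic genes in the gonad and adrenal. They were present in windows of 4 of the 7 members, CYP11A1, CYP19A1, HSD3B2 and FDXR, and in 17.3% of all windows. The first count is of genes and the second of windows, so they cannot be compared. CYP19A1 had several windows, some of which overlap. Short windows around a match are shown for the enzymes specific to steroid-making cells, with the matched letters in capitals and TGNCCTT where the match lies on the opposite strand.
CYP11A1, chr15:74367677-74367703, minus strand: gcttctggtaTGGCCTTgagctggtag
CYP19A1, chr15:51243144-51243170, minus strand: agactctaccAAGGTCAgaaatgctgc
HSD3B2, chr1:119414819-119414845, plus strand: tttactgtacAAGGACAacatttacat
A match is a description of the letters only. NR5A1 itself was scarcely read, with 0 to 22 counts per library.

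Libraries held 23.9 to 51.9 M counts, with a median of 41.4 M. In the IND libraries FOXL2 lay between 147.5 and 577.1 CPM, that is, counts scaled to 1 M, and in the CTRL and day 4 libraries it reached no more than 0.388 CPM, as labelled. A single library stood apart from its group, day 10 IND replicate 2. Its summed CPM of 6 pluripotency markers was 1964, against 393.7 and 468.0 in the other libraries of day 10 IND. Most of the 1964 CPM was LIN28A, since no other marker of the list exceeded 145.6 CPM in any library. POU5F1 reached at most 75.7 CPM and NANOG 0.317 CPM. Its values are given beside the day 10 results of several members and of the list genes called on that day. CPM here are counts divided by a library size adjusted with TMM factors. The floor was set at 3 counts in every library of a group, which corresponds to 0.0564 to 0.129 CPM depending on the library, and these limits cover counting error only.

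Of the 10 members, 7 were above the floor in every group and 3 were not. CYP17A1 was at the floor in 7 of the 11 groups, HSD3B2 in 4 and CYP19A1 in 2. On the deposited FPKM scale, which corrects for gene length, the electron carriers ranked highest, with medians over the 33 libraries of 13.8 for POR, 8.44 for FDXR and 8.22 for FDX1. SRD5A1 followed at 3.57, STAR at 1.55, CYP11A1 at 0.945 and HSD17B1 at 0.721. HSD3B2 had a median of 0.0277 FPKM and CYP19A1 of 0.0145, and CYP17A1 was listed at 0 in most libraries. The electron carriers, which also serve other pathways, were thus read far more often than the enzymes of progesterone, androgen and estrogen synthesis.

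**Figure D1:**
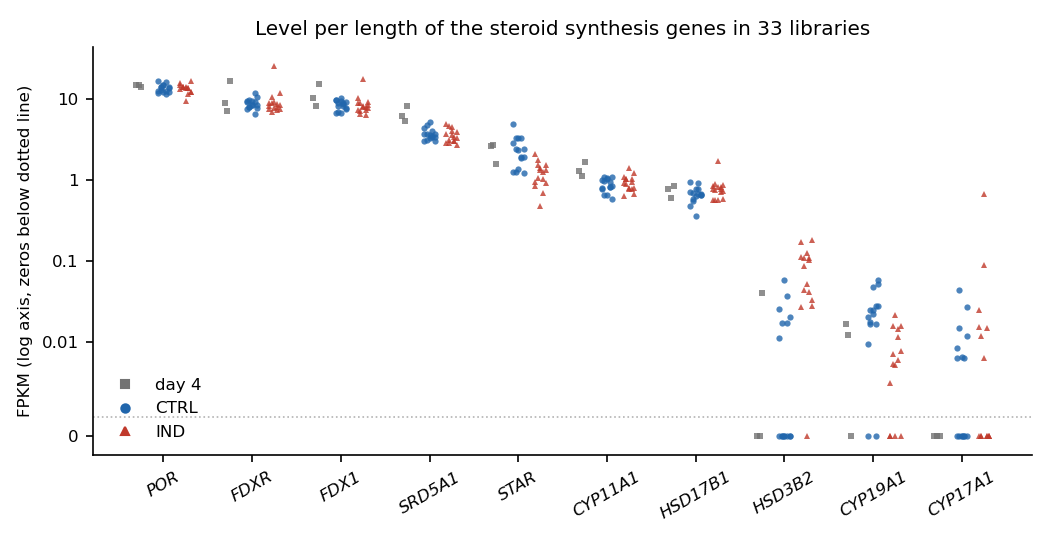
Level per length of the 10 genes (FPKM, log axis, zeros drawn below the dotted line) in each of the 33 libraries, grouped as day 4 (squares), CTRL (circles) and IND (triangles). POR, FDXR and FDX1 lie highest, with medians of 13.8, 8.44 and 8.22, and HSD3B2, CYP19A1 and CYP17A1 lie lowest, with many libraries at 0.

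Under induction STAR was lower and HSD3B2 higher at the first days after the compounds were added. In the comparison of IND with CTRL of the same day, 1 member was called lower and 1 higher on each of days 6 and 8, out of 8 members that passed the filter on low counts. Of all tested genes, 3.66% were called at day 6 (1.29% higher and 2.37% lower) and 14.2% at day 8 (7.49% and 6.67%). On days 10, 12 and 14 edgeR's quasi-likelihood test called 0 of the 7 tested members at an adjusted p under 0.05, against 2.03%, 5.42% and 8.43% of all tested genes. By direction these shares were 0.856% higher and 1.18% lower, 2.38% and 3.04%, and 3.21% and 5.22%. On those days 0 members had an unadjusted p under 0.05, and DESeq2 also called 0. In the comparisons with day 4, members were called 9 times among 35 tests in CTRL (DIFF) and 10 times among 35 in IND (DIFF+IND), and all but 1 of these calls were decreases. Depending on the day, 21.6% to 48.1% of all tested genes were called against day 4 in CTRL and 21.6% to 50.6% in IND. The shares called lower were 10.6% to 23.8% in CTRL and 9.79% to 24.8% in IND. By day, 0, 3, 1, 2 and 2 of the 7 tested members were called lower in CTRL, and 1, 2, 1, 2 and 4 in IND. Whether decreases were more frequent among the members than among genes at large was not tested. All comparisons with day 4 share its 3 libraries. The median log2 fold change of the tested members in IND against CTRL was -0.07, 0.05, 0.02, 0.15 and -0.07 on days 6, 8, 10, 12 and 14, in that order. Against day 4 it was -0.26, -0.30, -0.35, -0.66 and -0.58 in CTRL and -0.33, -0.42, -0.24, -0.50 and -0.64 in IND. The medians of all tested genes lay between -0.01 and 0.02 in these 15 comparisons.

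**Figure D2:**
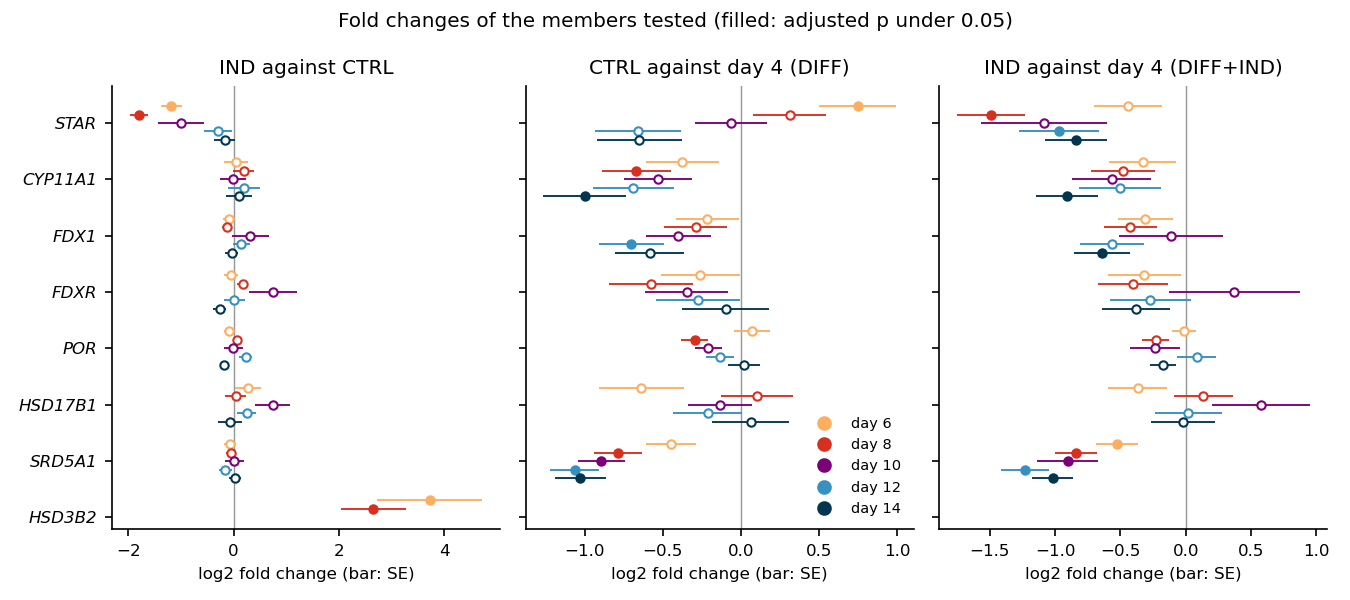
Log2 fold changes of the members tested, with SE bars, in IND against CTRL, CTRL against day 4 and IND against day 4, coloured by day, with filled points at an adjusted p under 0.05. STAR at -1.19 and -1.80 and HSD3B2 at 3.72 and 2.66 are the filled points of the IND panel, while SRD5A1 is filled in most comparisons with day 4.

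STAR, the protein that delivers cholesterol to the side-chain cleavage enzyme, fell most among the tested members under induction. At day 6 the CTRL libraries held 18.9, 12.6 and 12.7 CPM and the IND libraries 7.95, 5.89 and 5.37 CPM of STAR. At day 8 the CTRL libraries held 12.7, 9.14 and 10.7 CPM and the IND libraries 2.59, 3.44 and 3.24 CPM. The groups did not overlap on either day, which held for 19.1% and 33.1% of all tested genes. STAR fell by 1.19 on the log2 scale at day 6 (SE 0.198, edgeR quasi-likelihood test, adjusted p = 0.00197) and by 1.80 at day 8 (SE 0.179, adjusted p = 0.000102), a level 2.27-fold and 3.48-fold lower than in CTRL. Both calls held when any 1 of the 6 libraries was left out, with adjusted p-values of at most 0.0254 and 0.00148. In these bulk cultures fewer STAR-expressing cells and less STAR RNA per cell cannot be told apart.

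In the edgeR fits on the 6 libraries of a day STAR was not called after day 8. At day 10 the CTRL libraries held 8.97, 8.70 and 7.14 CPM of STAR and the IND libraries 6.61, 1.81 and 3.90 CPM, where 1.81 belongs to the library that stood apart. The groups did not overlap, as was the case for 30.9% of all tested genes on that day, and the STAR log2 fold change of -0.99 (SE 0.435) had an adjusted p of 0.354 by edgeR. Without that library it was -0.66 (SE 0.209, adjusted p = 0.0504), and in 1 edgeR fit over all 33 libraries it was -0.98 and was called (adjusted p = 0.0246). At days 12 and 14 the groups overlapped, with 4.66 to 7.21 CPM in CTRL against 3.52 to 5.96 in IND at day 12, and 4.55 to 7.02 against 4.75 to 5.02 at day 14. The STAR log2 fold changes were then -0.30 (SE 0.269) and -0.17 (SE 0.201).

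Across the course STAR was highest in CTRL at day 6, at 14.7 ± 3.6 CPM (SD, n = 3), and lowest in IND at day 8, at 3.09 ± 0.442 CPM. Day 4 lay between them, at 9.96, 10.3 and 5.95 CPM. Each group overlapped its neighbour in the order of the group means, as it did for 8 of the 10 members. Against day 4, STAR in CTRL at day 6 was 0.75 higher on the log2 scale (SE 0.245, edgeR adjusted p = 0.0495; 11% of tested genes were called higher), a call that held in 1 of the 6 fits without a library and was lost without any CTRL library, day 4 replicate 1 or day 4 replicate 3. In IND against day 4 the STAR log2 fold change was -1.49 at day 8 (SE 0.261, adjusted p = 0.00205), -0.97 at day 12 (SE 0.303, adjusted p = 0.0275) and -0.84 at day 14 (SE 0.238, adjusted p = 0.0142). The day 8 call held without any 1 library. That of day 12 was lost without IND replicate 2 or 3 or day 4 replicate 1 or 2, and that of day 14 without IND replicate 2 or 3 or day 4 replicate 1.

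Whether the effect of induction differed between days was tested with the 4 interaction terms together. The edgeR quasi-likelihood test called 0 of the 9 members tested, against 2.38% of all tested genes, with 1 member at an unadjusted p under 0.05 and 1 called by DESeq2. That member was STAR, with an adjusted p of 0.0834 by edgeR and 0.0133 by DESeq2. Without the day 10 library that stood apart the edgeR value was 0.00667. The adjusted p ranged from 0.000175 to 0.595 over all alternatives, so that the apparent narrowing of the STAR difference after day 8 was called or not called depending on the setting.

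STAR lies on the minus strand of chromosome 8, from 38143649 to 38151265 on GRCh38. Its end overlaps the end of ASH2L on the other strand, and 338 of the 3767 exonic bases of STAR are shared. The libraries were not strand-specific, so reads in those bases cannot be assigned to a strand. ASH2L, a chromatin protein with a median of 5256 counts per library, had log2 fold changes of -0.19 (SE 0.0932, adjusted p = 0.396) and -0.13 (SE 0.0621, adjusted p = 0.197) in the same edgeR comparisons at days 6 and 8. Several marker lists differed between IND and CTRL in the same comparisons. Coelomic epithelium is the tissue that covers the early gonad. Among its 7 markers are WT1, GATA4 and LHX9, which are also described as regulators below. The 7 markers summed to 847.9 to 1180 CPM in IND and 1262 to 1408 CPM in CTRL at day 6, and at day 8 the sum was 809.8 to 1105 against 952.8 to 1298. All 7 were above the floor in both groups of day 8, and 6 in both groups of day 6. Granulosa markers other than CYP19A1 and HSD17B1 include the activated FOXL2, which alone lay between 147.5 and 577.1 CPM in the IND libraries. These markers summed to 1032 to 1040 CPM in IND and 523.7 to 661.3 CPM in CTRL at day 6. At day 8 the sum was 730.1 to 801.7 against 429.3 to 506.1 CPM. The day 4 libraries held the highest sums of these markers, 1337 to 1648 CPM. GJA1, 1 of these markers, reached 1589 CPM, while FST, AMH, AMHR2, FSHR and INHA reached no more than 91.9 CPM in any library. The day 4 sums were therefore mainly GJA1. Trophoblast markers summed to 19.7 to 26.9 CPM in IND and 27.1 to 30.2 CPM in CTRL at day 6, and overlapped at day 8. Among them only GATA3 and TFAP2A exceeded 2.55 CPM in any library, so these sums do not establish that trophoblast was present. Neuronal markers summed to 63.0 to 73.3 CPM in IND and 102.1 to 150.4 CPM in CTRL at day 8, and overlapped at day 6. The part of cells with any of these markers in the STAR result was not tested.

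**Figure D3:**
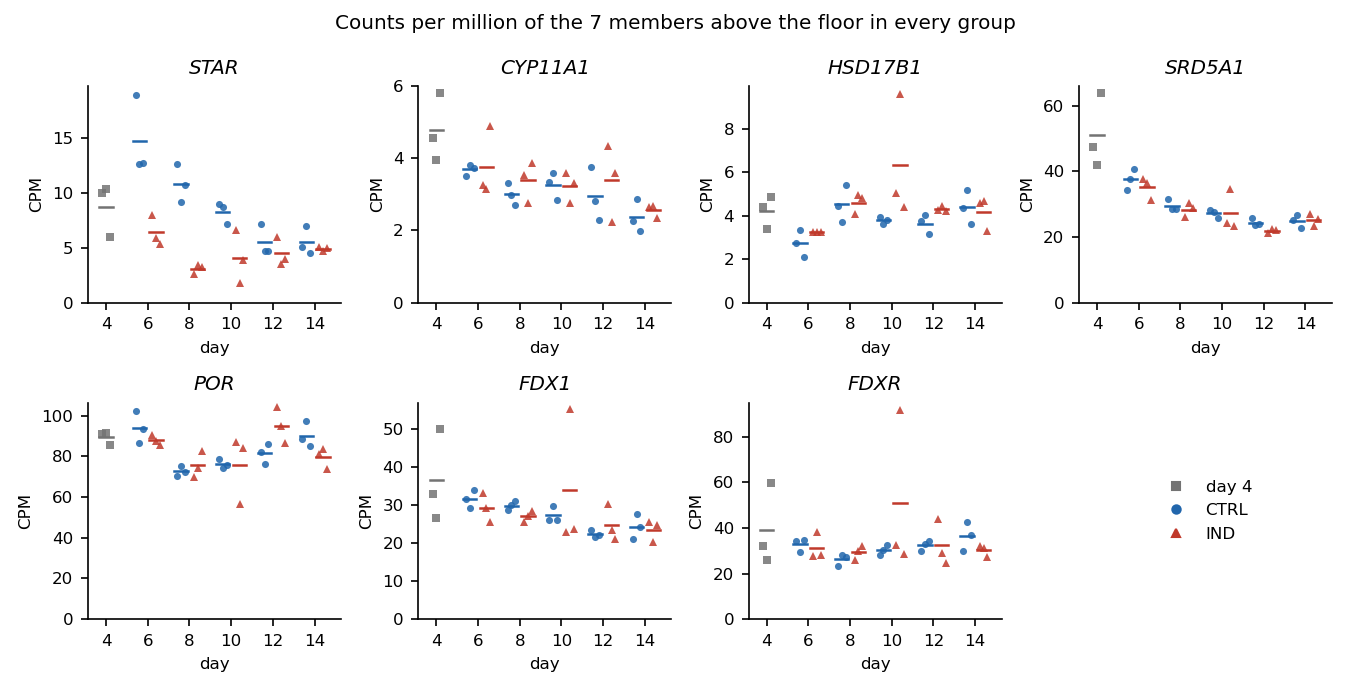
CPM of the 7 members above the floor in every group, by day, with 1 point per library and a bar at the group mean, for day 4 (grey squares), CTRL (blue circles) and IND (red triangles). STAR separates IND from CTRL at days 6, 8 and 10, SRD5A1 falls from day 4 in both arms, and the day 10 IND library at 91.7 CPM of FDXR is the one that stood apart.

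CYP11A1, the side-chain cleavage enzyme that makes the first steroid, did not follow STAR under induction. Its level was 3.69 ± 0.168 CPM in CTRL and 3.77 ± 0.973 CPM in IND at day 6 (SD, n = 3), and 3.00 ± 0.314 and 3.4 ± 0.579 CPM at day 8. The groups overlapped on all 5 days, and the CYP11A1 log2 fold changes lay between -0.01 and 0.20, with edgeR adjusted p-values of at least 0.593. In both arms the level decreased from day 4, where the libraries held 4.58, 3.95 and 5.82 CPM. At day 14 they held 2.27, 2.88 and 1.99 CPM in CTRL and 2.65, 2.68 and 2.34 CPM in IND, below every day 4 library. Such a lack of overlap with day 4 was seen for 58.6% of all tested genes in CTRL and 60.2% in IND. Against day 4 the CYP11A1 log2 fold change at day 14 was -0.999 in CTRL (SE 0.265, adjusted p = 0.0117) and -0.91 in IND (SE 0.239, adjusted p = 0.00974). The CTRL call was lost without CTRL replicate 1 (adjusted p = 0.0548), and the IND call held without any 1 library. CYP11A1 was also called in CTRL at day 8 (log2 fold change -0.67, SE 0.223, adjusted p = 0.0425), a call that held without day 4 replicate 2 but not without any of the other 5 libraries.

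FDX1 and FDXR, the ferredoxin and its reductase that feed electrons to CYP11A1 and other mitochondrial enzymes, each had 2 libraries that lay well above the rest. FDXR was at 31.9, 25.9 and 59.7 CPM in the day 4 libraries, and at 32.6, 91.7 and 28.4 CPM in IND at day 10. FDX1 was at 32.9, 26.5 and 49.97 CPM at day 4, and at 22.9, 55.1 and 23.6 CPM in IND at day 10. In both genes the high values belonged to day 4 replicate 3 and to the day 10 IND library that stood apart. Elsewhere FDXR lay between 23.4 and 44.0 CPM and FDX1 between 20.2 and 33.8 CPM.

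Neither carrier was called between IND and CTRL on any day. At day 10 the log2 fold changes were 0.75 for FDXR (SE 0.45) and 0.32 for FDX1 (SE 0.357), and without the library that stood apart they were 0.00 (SE 0.0933) and -0.23 (SE 0.0910). Against day 4, FDX1 was lower in CTRL at day 12 (log2 fold change -0.70, SE 0.208, edgeR adjusted p = 0.0226) and in IND at day 14 (-0.64, SE 0.213, adjusted p = 0.0301). The day 12 call was lost without day 4 replicate 1 or any CTRL library. Without day 4 replicate 3 the FDX1 change in CTRL at day 12 was -0.39 (adjusted p = 0.0156). That in IND at day 14 was then -0.32 (adjusted p = 0.0605), and leaving out day 4 replicate 1 or any IND library also ended the call. FDXR was not called in any comparison with day 4. Its log2 fold changes in CTRL, all negative, turned positive at days 6, 10, 12 and 14 without day 4 replicate 3, with none called.

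POR, the reductase that supplies the microsomal cytochromes including CYP17A1 and CYP19A1, had the narrowest relative spread of group means, which lay between 72.7 and 95.1 CPM. Its lowest library, at 56.7 CPM, was the day 10 IND library that stood apart. POR was called once, in CTRL at day 8, where 70.2, 75.3 and 72.5 CPM stood against 90.9, 91.4 and 85.5 CPM at day 4. The log2 fold change was -0.30 (SE 0.0857, edgeR adjusted p = 0.0245), and the call held in 2 of the 6 fits without a library, those without day 4 replicate 2 or 3. POR shares 19 bases with TMEM120A on the other strand.

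SRD5A1, which reduces testosterone to dihydrotestosterone, was the member called most often against day 4. It was at 47.4, 41.8 and 63.8 CPM at day 4 and at 24.4 ± 1.11 CPM in CTRL and 21.9 ± 0.507 CPM in IND at day 12 (SD, n = 3). Every later library held less than the lowest day 4 library. Groups did not overlap for 39.4%, 51.5%, 57.6%, 59.4% and 58.6% of all tested genes in CTRL against day 4, and for 44%, 49.8%, 45.3%, 51.4% and 60.2% in IND, on days 6, 8, 10, 12 and 14 in that order. In CTRL against day 4 the SRD5A1 log2 fold change was -0.79 at day 8 (SE 0.152, edgeR adjusted p = 0.00383), -0.89 at day 10 (SE 0.152, adjusted p = 0.00147), -1.06 at day 12 (SE 0.155, adjusted p = 0.00068) and -1.03 on day 14 (SE 0.164, adjusted p = 0.000741). All 4 calls held without any 1 library. At day 6 the difference of -0.45 (SE 0.162) was not called, with an adjusted p of 0.0708. On these 5 days 21.6%, 37.1%, 45.1%, 48.1% and 47.6% of all tested genes were called in CTRL, and 10.6%, 18.9%, 22%, 23.8% and 22.9% were called lower, so a call against day 4 was common.

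In IND, SRD5A1 was below day 4 on all 5 days, with log2 fold changes of -0.53, -0.84, -0.90, -1.23 and -1.02 in order of day and edgeR adjusted p-values between 0.000504 and 0.0366. The share of all tested genes called on those days was 26.5%, 35.8%, 21.6%, 37.1% and 50.6%, and the share called lower was 13.5%, 17%, 9.79%, 16.6% and 24.8%. The calls of days 8, 12 and 14 held without any 1 library. That of day 6 was lost without any IND library or day 4 replicate 1, and that of day 10 held only without IND replicate 2, the library that stood apart. Between IND and CTRL the SRD5A1 log2 fold change lay between -0.16 and 0.02, and the gene was not called on any day.

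HSD17B1, which makes estradiol from estrone in granulosa cells and placenta, was read at 2.09 to 9.58 CPM and was called in none of the 15 edgeR comparisons fitted on 6 libraries each. The highest value, 9.58 CPM, was again that of the day 10 IND library that stood apart, beside 5.03 and 4.39 CPM in its group. HSD17B1 in IND at day 10 lay above CTRL, at 3.94, 3.63 and 3.81 CPM, with a log2 fold change of 0.74 (SE 0.336, edgeR adjusted p = 0.370). Without that library it was 0.31 (SE 0.168). The groups did not overlap for 30.9% of all tested genes on that day. In 1 edgeR fit over all 33 libraries the HSD17B1 log2 fold change was 0.73 and was called (adjusted p = 0.0384). The pseudogene HSD17B1P1, with a median of 144 counts per library, is a near copy, so the split of reads between the pair is uncertain.

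HSD3B2, the enzyme of gonad and adrenal that makes progesterone, had the highest fold change under induction among the members that passed the filter, at very low counts. At day 6 it had 2, 0 and 0 counts in the CTRL libraries and 10, 11 and 13 in the IND libraries. At day 8 it had 4, 2 and 1 counts in CTRL and 10, 17 and 20 in IND. The groups did not overlap on either day, as was the case for 19.1% and 33.1% of all tested genes. The edgeR log2 fold change of HSD3B2 was 3.72 at day 6 (SE 1.00, adjusted p = 0.0494) and 2.66 at day 8 (SE 0.616, adjusted p = 0.0151). Pooled counts corrected for library size gave ratios of 15.4 (exact 95% interval 3.95 to 132.4) and 6.53 (2.93 to 17.1), which cover counting error only. The day 6 call was lost in each of the 6 fits without a library, with adjusted p-values from 0.0661 to 0.210. That of day 8 held in 3 of them and was lost without CTRL replicate 2, CTRL replicate 3 or IND replicate 2. In 1 edgeR fit over all 33 libraries neither HSD3B2 call held (adjusted p = 0.094 and 0.0964), and without the filter the day 6 call was also lost (adjusted p = 0.0533).

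The later days of HSD3B2 did not pass the filter on low counts. At day 10 there were 2, 6 and 2 counts in CTRL and 5, 0 and 12 in IND, with a ratio of 2.03 and an interval of 0.876 to 4.95. At days 12 and 14 every CTRL library had 0 counts, while IND had 3, 3 and 6 counts at day 12 and 4 in each library at day 14. With CTRL set to the floor of 3 counts per library, the mean HSD3B2 CPM in IND at day 12 was 1.79-fold higher. The IND libraries with 3 counts were themselves at that floor, and counting error in IND is not covered. Without the filter edgeR gave an adjusted p of 0.121 at day 12, and 1 of 3 alternative settings called that difference. At day 14 the mean in IND was 0.965 of that floor, so no lower limit on the fold difference could be given. The edgeR fit without the filter gave an adjusted p of 0.241 at day 14, and 0 of 3 alternative settings called that difference. The groups did not overlap on either day, which held for 30.3% and 26.7% of all tested genes. Across the 15 IND libraries HSD3B2 ranged from 0 to 0.430 CPM.

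Genes close in sequence to HSD3B2 were low or not called at days 6 and 8. Summed markers of other steroid-handling cells differed between IND and CTRL at day 8, in a direction that depended on the markers summed. HSD3B1, the related placental enzyme, had at most 15 counts in any library, and the pseudogene HSD3BP5 had 5 to 72. The log2 fold change of HSD3BP5 in IND against CTRL was -1.12 at day 6 (SE 0.396, edgeR adjusted p = 0.163) and 0.15 at day 8 (SE 0.411, adjusted p = 0.851). Among 10 markers of Leydig, theca and adrenal cortex cells, which include STAR, CYP11A1, CYP17A1 and HSD3B2, the corticotropin receptor MC2R was at 0 counts in all 33 libraries. All 10 markers together summed to 10.0 to 12.2 CPM in IND and 16.8 to 23.0 CPM in CTRL at day 6. At day 8 that sum was 7.40 to 8.65 CPM in IND against 12.7 to 16.6 CPM in CTRL. STAR alone had means of 14.7 CPM in CTRL and 6.40 CPM in IND at day 6, and of 10.9 and 3.09 CPM at day 8. The lower sums in IND thus mainly repeat the STAR result. Without the members of the steroid set, the other 6 markers, MC2R included, were low. They summed to 0.643 to 1.11 CPM in IND and 0.336 to 0.718 CPM in CTRL at day 6, and to 0.95 to 1.12 against 0.214 to 0.577 CPM at day 8. Markers of hepatocytes, a further site of steroid metabolism, summed to 123.2 to 212.5 CPM in IND and 46.5 to 102.6 CPM in CTRL at day 8, over 6 genes all above the floor, and to 59.6 to 174.3 against 64.5 to 132.1 CPM at day 6. The hepatocyte marker ALB reached no more than 0.936 CPM in any library, while AFP, APOA1 and TTR reached 100.3, 85.3 and 48.6 CPM. These sums therefore do not establish that hepatocytes were present. The part of cells with any of these markers in the HSD3B2 result was not tested.

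CYP17A1, the enzyme that leads from progestogens to androgens, was at the floor at day 4, in CTRL and IND at days 6 and 8, and in CTRL at days 10 and 14. All 3 day 4 libraries had 0 counts. Only 5 of 33 libraries exceeded 3 counts: CTRL at day 12 had 5, 1 and 7, IND at day 12 had 0, 4 and 0, IND at day 14 had 10, 0 and 0, and IND at day 10 had 2, 53 and 0. The 53 counts, or 2.29 CPM, were in the library that stood apart, and no group had 3 libraries above the floor. Of the 3445 exonic bases of CYP17A1, 1417 are shared with WBP1L on the other strand, a gene of 1192 to 4742 counts per library. WBP1L had 54.6 CPM in that library, against 78.1 and 75.9 CPM in the others of its group. CYP17A1 passed the filter in none of the 15 comparisons. Fitted without the filter it was called in 0 of 15 by edgeR, with adjusted p-values from 0.104 to 0.992.

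CYP19A1, the aromatase that granulosa cells need for estrogen synthesis and a gene that FOXL2 is known to regulate in the ovary, was read at no more than 0.487 CPM. At day 4 it had 4, 3 and 0 counts. In CTRL there were 0, 8 and 9 counts on day 6, 0, 10 and 3 on day 8, 7, 18 and 12 on day 10, 23, 8 and 7 on day 12 and 7, 4 and 12 on day 14. In IND there were 1, 2 and 2 counts on day 6, 2, 0 and 0 on day 8, 3, 0 and 6 on day 10, 3, 0 and 4 on day 12 and 6, 4 and 7 on day 14. IND was at the floor at days 6 and 8, and at days 10 and 12 every IND library had fewer counts than every CTRL library, a separation seen for 30.9% and 30.3% of all tested genes.

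Pooled CYP19A1 counts corrected for library size gave ratios of IND to CTRL on days 6, 8, 10, 12 and 14 of 0.267 (exact 95% interval 0.0769 to 0.753), 0.15 (0.0164 to 0.661), 0.29 (0.123 to 0.611), 0.222 (0.0835 to 0.502) and 0.533 (0.267 to 1.04). These intervals cover counting error only. CYP19A1 did not pass the filter in any pairwise comparison, and without the filter edgeR called 0 of 15, with adjusted p-values from 0.25 to 0.917 and 1 unadjusted p under 0.05, in IND against CTRL at day 12. In the interaction fit, which it did pass, its adjusted p was 0.945. Against day 4, the pooled ratio in CTRL on days 10, 12 and 14 was 3.21 (1.41 to 8.53), 3.27 (1.44 to 8.67) and 3.17 (1.32 to 8.74).

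**Figure D4:**
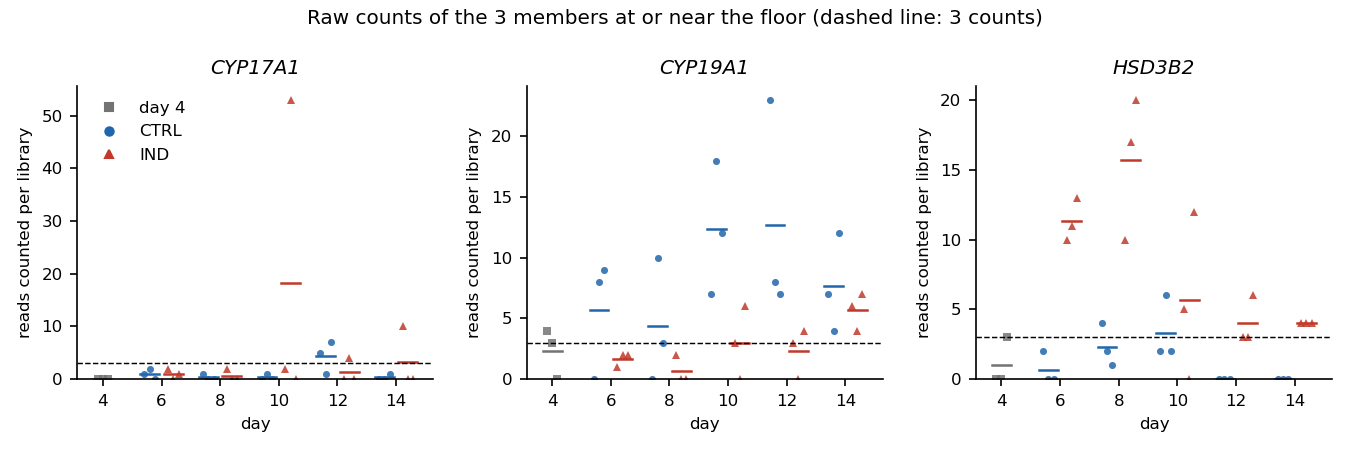
Raw counts per library of CYP17A1, CYP19A1 and HSD3B2 by day, with bars at group means and a dashed line at the floor of 3 counts, for day 4 (squares), CTRL (circles) and IND (triangles). The 53 counts of CYP17A1 come from 1 library of day 10 IND, the highest raw counts of CYP19A1 are those of CTRL at days 10 and 12, and HSD3B2 is highest in IND at days 6 and 8.

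The rest of the steroid pathway was followed with 5 gene lists, whose counts stand against 3.66%, 14.2%, 2.03%, 5.42% and 8.43% of all tested genes called in IND against CTRL on days 6, 8, 10, 12 and 14. Among 13 genes of cholesterol supply, all tested on every day, 1 was called in IND against CTRL at day 10 and 1 at day 14, where the background was 2.03% and 8.43%. TSPO, an outer mitochondrial membrane protein linked to cholesterol import, was lower at day 10 (log2 fold change -0.72, SE 0.130, edgeR adjusted p = 0.0481), and ABCA1, which exports cholesterol, was higher at day 14 (0.58, SE 0.102, adjusted p = 0.00266). The day 10 IND library that stood apart held 19.3 CPM of TSPO, beside 23.2 and 20.9 CPM in its group. The list medians lay between -0.06 and 0.05, and the medians of all tested genes between -0.01 and 0.02. In CTRL at day 14, 3 of the 13 were called higher and 5 lower than at day 4, against 24.6% and 22.9% of all tested genes.

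Among 26 other synthesis enzymes, 16 or 17 were tested on each day, and the aldo-keto reductases that reduce steroid ketones made up the increases under induction. AKR1C1, which inactivates progesterone, was higher in IND at 4 of 5 days, the exception being day 14. From day 6 on, its log2 fold changes were 0.96 (SE 0.253, edgeR adjusted p = 0.0444), 1.51 (SE 0.237, adjusted p = 0.0017), 1.58 (SE 0.274, adjusted p = 0.0444) and 1.04 (SE 0.25, adjusted p = 0.0489). The day 10 IND library that stood apart held 8.80 CPM of AKR1C1, beside 7.33 and 5.37 CPM in its group. AKR1C2, which reduces dihydrotestosterone, was higher by 1.34 at day 6 (SE 0.353, adjusted p = 0.0444) and 1.27 at day 8 (SE 0.261, adjusted p = 0.00806). AKR1C3, which makes testosterone from androstenedione, was called higher at day 8 (adjusted p = 0.00524), with 0 to 3 counts in the CTRL libraries, which is at the floor, and 19 to 23 in the IND libraries. These paralogs are close in sequence, so the split of reads among them is uncertain. HSD17B14 was lower at day 14 (-0.42, SE 0.119, adjusted p = 0.0460).

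Genes of sulfate and glucuronide conjugation, through which steroids are inactivated, numbered 9, of which 6 were tested. At day 8 UGT2B7, a steroid glucuronosyltransferase, was lower in IND (log2 fold change -2.24, SE 0.353, edgeR adjusted p = 0.00178), and PAPSS2, which makes the sulfate donor, was higher by 0.67 (SE 0.154, adjusted p = 0.0147). Among the steroid receptors, NR3C2, the mineralocorticoid receptor, was higher in IND by 1.28 at day 8 (SE 0.390, edgeR adjusted p = 0.0499).

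Regulators of steroidogenesis held the most calls, with 2, 6, 2, 4 and 6 of 17 to 19 tested genes called in IND against CTRL in order of day. Of these, 0, 2, 0, 1 and 2 were higher and 2, 4, 2, 3 and 4 lower, and the background shares by direction are those given for the members. WT1 and GATA4, transcription factors of the early gonad, were lower on all 5 days, with log2 fold changes of -2.32 to -0.57 for WT1 and -1.34 to -0.55 for GATA4 and edgeR adjusted p-values of at most 0.0219 and 0.0313. The day 10 IND library that stood apart held 33.5 CPM of WT1, beside 29.8 and 21.8 CPM in its group. For GATA4 it held 255.6 CPM, beside 180.3 and 188.9 CPM. LHX9, a further early gonad factor, was called at 3 of the 4 days on which it was tested, at -3.33 (day 8), -1.97 (day 12) and -1.51 (day 14) on the log2 scale. FSHR, the granulosa receptor for follicle-stimulating hormone, was higher by 1.03 at day 8 (SE 0.215, adjusted p = 0.00899) and by 2.74 at day 14 (SE 0.492, adjusted p = 0.00466). Its libraries held 0.214, 0.211 and 0.812 CPM in CTRL and 1.83, 2.34 and 3.66 CPM in IND at day 14. The day 4 libraries already held 2.80, 3.64 and 3.07 CPM of FSHR. Against day 4 the FSHR log2 fold change at day 14 was -2.99 in CTRL (SE 0.509, edgeR adjusted p = 0.0011) and -0.28 in IND (SE 0.304, adjusted p = 0.473). The day 14 difference thus lay in a decrease in CTRL. At day 6 FSHR in IND against CTRL was at -0.49 and not called (adjusted p = 0.343). NR5A1 was tested in IND against CTRL at day 12 only, with a log2 fold change of 0.56 (SE 0.514, adjusted p = 0.561). LHCGR, the receptor for luteinising hormone on theca and Leydig cells, had 0 to 18 counts and was tested on no day.

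The genes most like each member over the 11 group means of log2 CPM were listed as a description. The points share the libraries of 1 clone and 1 differentiation. For FDXR, HSD17B1 and CYP17A1 the highest of the 11 means was that of day 10 IND, which holds the library that stood apart. The part of that library in these r values was not tested. SRD5A1 was most like TFAM and GEMIN2 (both Pearson r = 0.99), CYP11A1 most like BUB1 (0.97) and RAB20 (0.96), and FDX1 most like CWF19L1 (0.97) and KNOP1 (0.96). STAR was most like IFT172 (0.93) and GUCY1A1 (0.92), HSD17B1 most like SLC33A1 (0.92) and the lincRNA AC102953.2 (0.90), FDXR most like GATD1 (0.91) and STK11IP (0.89), and POR most like NCKIPSD (0.88) and GLRX (0.85). For the 3 members near the floor the same search gave PARP4 and VEGFC for HSD3B2 (0.93 and 0.91), PPM1E and ADAM12 for CYP19A1 (both 0.93), and NCBP3 and FUK for CYP17A1 (0.92 and 0.84), where few counts stand behind the member's own values. No other member was among the genes most like a member.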

How the data were processed

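Bulk RNA-seq of poly-A RNA from non-directional libraries was available for 33 samples. Per the labels, reads were trimmed with fastp 0.23.2, aligned with HISAT2 2.0.5 to GRCh38 and counted per gene with featureCounts 1.5.0-p3. The authors deposited raw counts and FPKM values. Counts were used for all tests and FPKM only to compare levels between genes. The coordinates of the 10 members equalled those of GENCODE v29.

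Each comparison was fitted on its 6 libraries with edgeR 4.0.16 in R 4.3.3 (filterByExpr, TMM, robust quasi-likelihood test), with Benjamini-Hochberg adjustment over all genes tested and a threshold of 0.05. The effect of day on induction was tested over the 30 libraries after day 4. The scripts were tested on simulated data. The alternatives tried were each library left out, other floors, an added limit on the fold change, a replicate block, 1 fit over 33 libraries, no filter, RLE scaling and DESeq2 1.42.0. Low-count ratios carry exact binomial intervals.

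The members and the lists were chosen with earlier results of these data known. The pathway genes named were those called on most days of IND against CTRL, up to 4 per list, with NR5A1, FSHR and LHCGR added, and 1 gene so chosen is not reported here. For each member the 2 genes with the highest Pearson r over the 11 group means, among genes with a mean log2 CPM of at least 1 (prior count 2), were named. Neighbouring and copied genes were named after their values were seen. IND and CTRL libraries with the same replicate number did not deviate together (15 correlations from -0.107 to 0.0781, 0 of them over 0.1), so the numbers were not treated as pairs.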

Additional observations from a re-analysis of the deposited data

Results flagged for a closer look

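POR stood out because its induced libraries lay wholly above the controls at 1 day and wholly below them at another. At day 12 the IND libraries held 104.1, 95.0 and 86.4 CPM against 82.0, 76.2 and 86.0 in CTRL. The log2 fold change was 0.23 (SE 0.116, edgeR adjusted p = 0.323). At day 14 they held 81.2, 83.4 and 74.0 CPM against 88.3, 97.1 and 85.2 CPM, with a log2 fold change of -0.18 (SE 0.0862, adjusted p = 0.257). Groups did not overlap for 30.3% and 26.7% of all tested genes on these days, and the interaction test gave POR an adjusted p of 0.529.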

How the results depend on the processing

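Among members called in the pairwise comparisons, 192 of 252 alternative values kept the call and 60 lost it. Among those not called, 32 of 924 became called, and 0 changed direction while called. Calls in IND against CTRL numbered 4, and 2 to 3 with a library left out, with 2 without CTRL replicate 2, CTRL replicate 3 or IND replicate 2. Calls in CTRL against day 4 numbered 9, and 5 to 15 with a library left out, with 15 without day 4 replicate 2 and 5 without day 4 replicate 1, CTRL replicate 2 or CTRL replicate 3. Calls in IND against day 4 numbered 10, and 5 to 12 with a library left out, with 5 without day 4 replicate 1 or IND replicate 3 and 6 without IND replicate 2. Requiring also a log2 fold change of 1 or more in size, these became 2 in CTRL and 3 in IND against day 4. The interaction of day and induction gave 0 calls, 2 with no filter, 1 with DESeq2 and 0 to 1 with a replicate left out, with 1 without replicate 2 and 1 without day 10 IND replicate 2. With the replicate number as a block, a number that does not pair the samples here, there were 4, 9 and 8 calls in the 3 families of pairwise comparisons and 1 in the interaction. The cause of these changes was not tested. DESeq2 gave no adjusted p for HSD3B2 at day 6. At these depths 3 counts correspond to at most 0.129 CPM, and differences in CYP17A1, CYP19A1 and HSD3B2 below that level could not be seen. Of the member and group combinations, 13 were at the floor, against 3 with a floor of 0 counts and 26 with a floor of 10.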
